A study of Mus musculus with 18 samples.

Results

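The genes described here are 6 products of Paneth cells, namely Lyz1, Mmp7, Ang4, Itln1, Defa17 and Defa24, chosen by name among the 47729 gene identifiers in each count table. They were read in epithelial cells sorted from the mouse ileum, the last stretch of the small intestine, whose polyadenylated RNA was sequenced in bulk. The 18 libraries came from 3 groups of 6, which were lactating females on day 7 of lactation, age-matched virgin females and age-matched virgin males. Per the labels, mice ate the RM3 diet while breeding and the RM1 diet for maintenance and the experiment. Strain, genotype, age in weeks and sorting gates are not given in the sources used. The labels do not say that each library is a separate animal, so p-values measure only the spread between samples, which may be technical.

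Paneth cells sit at the base of the intestinal crypts, between the stem cells, and release granules of antimicrobial proteins into the crypt lumen. They also make signals that stem cells need, among them Wnt3 and Egf. Lyz1 encodes the lysozyme of mouse Paneth cells, an enzyme that cuts bacterial cell walls. Mmp7 encodes matrilysin, the protease that converts pro-alpha-defensins of the mouse to their active form. Ang4 encodes an angiogenin-family ribonuclease of Paneth cells with microbicidal activity. Itln1 encodes intelectin, a lectin that binds microbial sugars. Defa17 and Defa24 encode alpha-defensins (cryptdins), small cationic peptides that damage bacterial membranes.

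On GRCm38 the 6 genes lie on 5 chromosomes, and all are annotated as protein-coding. Lyz1 lies on the minus strand of chromosome 10 (117287797 to 117292868), Mmp7 on the plus strand of chromosome 9 (7692090 to 7699585) and Ang4 on the minus strand of chromosome 14 (51763878 to 51773590). Itln1 lies on the minus strand of chromosome 1 (171518122 to 171535294). Both defensins lie on the plus strand of chromosome 8, Defa17 at 21655780 to 21656735 and Defa24 at 21734494 to 21735471, inside a cluster of near-identical copies.

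The coding sequences of the 2 defensins are shown because their likeness bears on how far their counts can be told apart. Both are 282 bases long in 2 exons, and 270 of the 282 bases are identical (95.7%). Capitals mark the 12 bases that differ between them. The sequences were taken from the GENCODE M21 transcripts, at the coding positions of their gene models. On GRCm38 these lie within chr8:21655801-21656641 for Defa17 and chr8:21734537-21735377 for Defa24 (plus strand).
Defa17: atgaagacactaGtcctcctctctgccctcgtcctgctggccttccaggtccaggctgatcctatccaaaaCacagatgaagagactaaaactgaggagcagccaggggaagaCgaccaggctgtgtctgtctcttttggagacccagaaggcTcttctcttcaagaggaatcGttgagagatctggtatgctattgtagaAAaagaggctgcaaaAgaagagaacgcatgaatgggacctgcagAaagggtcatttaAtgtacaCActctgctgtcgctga
Defa24: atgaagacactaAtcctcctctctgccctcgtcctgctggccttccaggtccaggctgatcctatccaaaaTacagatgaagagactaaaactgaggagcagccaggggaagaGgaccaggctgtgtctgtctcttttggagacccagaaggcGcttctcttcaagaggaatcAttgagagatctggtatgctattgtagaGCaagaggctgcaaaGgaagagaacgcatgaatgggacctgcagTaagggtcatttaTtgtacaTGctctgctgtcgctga

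The other close copy bears on Defa17 directly. Its coding sequence is the same as that of Defa3 in 282 of 282 bases. Of all stretches of 100 bases in the Defa17 transcript, 90.6% also occur in a transcript of another gene (Defa3 or Defa30), against 0% for Defa24. At 50 bases the shares were 92.0% for Defa17 and 28.1% for Defa24. The value printed for Defa17 is therefore that of a row that shares most of its sequence with Defa3. Read length is not given in the sources used, so how many reads could be told apart is not known. The other 4 genes share little: at 100 bases 2.1% of Lyz1 (with Lyz2), 2.6% of Mmp7 (with AV064505) and 0% of Ang4 and Itln1 occur elsewhere.

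The libraries held 34577104 to 49039300 counts, and values below are CPM, counts scaled to a common library size with TMM factors. A count of 3, taken as the floor, is 0.0549 to 0.0882 CPM depending on the library, so all 6 genes stood far above it everywhere. The male-specific gene Ddx3y stood at 25.4 to 30.7 CPM in virgin males and at no more than 0.0742 CPM in the females. Vil1, an epithelial cytoskeleton gene, stood at 1825 to 4980 CPM. Of 14 immune markers 8 were under 1 CPM in all libraries, with the pan-leukocyte gene Ptprc at 0.0397 to 0.373 CPM, and the same held for 6 of 8 stromal markers. The summed immune list ran from 185 to 3239 CPM, of which Cd74, an antigen presentation gene that epithelium can also express, stood at 160 to 3231 CPM. Virgin female 2 and virgin male 6 stood apart in Gm42418, a transcript that overlaps ribosomal RNA, with 31048 and 29980 CPM against 1230 to 4477 CPM in the other libraries. All 153 pairs of libraries differed by more than counting noise (lowest chi-square per degree of freedom 34.6).

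Over all libraries the mean level of the 6 genes ran from 91.7 CPM for Mmp7 to 2855 CPM for Lyz1. Per kilobase of annotated exon, the mean level over all libraries was 5065 CPM for Defa24, 3153 for Defa17, 2261 for Lyz1, 937 for Itln1, 322 for Ang4 and 85.8 for Mmp7. The 2 defensins, the shortest of the 6 with 419 and 397 bases of exon, thus led on this scale, whereas Lyz1 led in CPM. The 6 genes together took 0.0909% of all counts in virgin female 1 and 1.65% in virgin male 4, the lowest and the highest library. In bulk RNA, fewer Paneth cells and less RNA per Paneth cell cannot be told apart.

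Lyz1 ran from 1245 to 3647 CPM in lactating females (median 1690), from 412 to 5535 in the virgin females (median 3405) and from 1315 to 5848 in the males (median 3656). The means were 1966 ± 873, 3113 ± 1805 and 3488 ± 1828 CPM (SD, n = 6 each). Lactating females lay low except for replicate 2, but the 3 ranges overlapped.

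Itln1 ran from 519 to 1619 CPM in lactating females (median 756), from 145 to 2111 in the virgin females (median 1322) and from 411 to 1819 in the males (median 1323). Its means were 864 ± 388, 1180 ± 734 and 1163 ± 573 CPM (SD, n = 6 each). As for Lyz1, lactating female 2 stood above the other lactating libraries, and all ranges overlapped.

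Defa17 ran from 705 to 1827 CPM in lactating females (median 1007), from 185 to 2371 in the virgin females (median 1448) and from 502 to 2133 in the males (median 1393). Defa24 ran from 1074 to 3038 CPM (median 1508), from 306 to 3958 (median 2460) and from 919 to 4230 (median 2469) in the same order. The lactating ranges of both defensins lay inside those of the virgin females.

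Ang4 ran from 70.0 to 206 CPM in lactating females (median 103), from 26.5 to 559 in the virgin females (median 254) and from 94.0 to 439 in the males (median 324). Its means were 119 ± 47.2, 272 ± 194 and 295 ± 141 CPM (SD, n = 6 each). Of the 6 genes it showed the lowest lactating mean relative to either virgin group. Virgin females 2 and 5 and virgin males 3 and 5 still lay inside the lactating range, and virgin female 1 lay below it.

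Mmp7 ran from 62.9 to 141 CPM in lactating females (median 91.2), from 26.5 to 154 in the virgin females (median 104) and from 31.7 to 135 in the males (median 90.6), with means of 95.0 ± 29.1, 96.2 ± 48.1 and 83.7 ± 37.1 CPM (SD, n = 6 each).

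**Figure D1:**
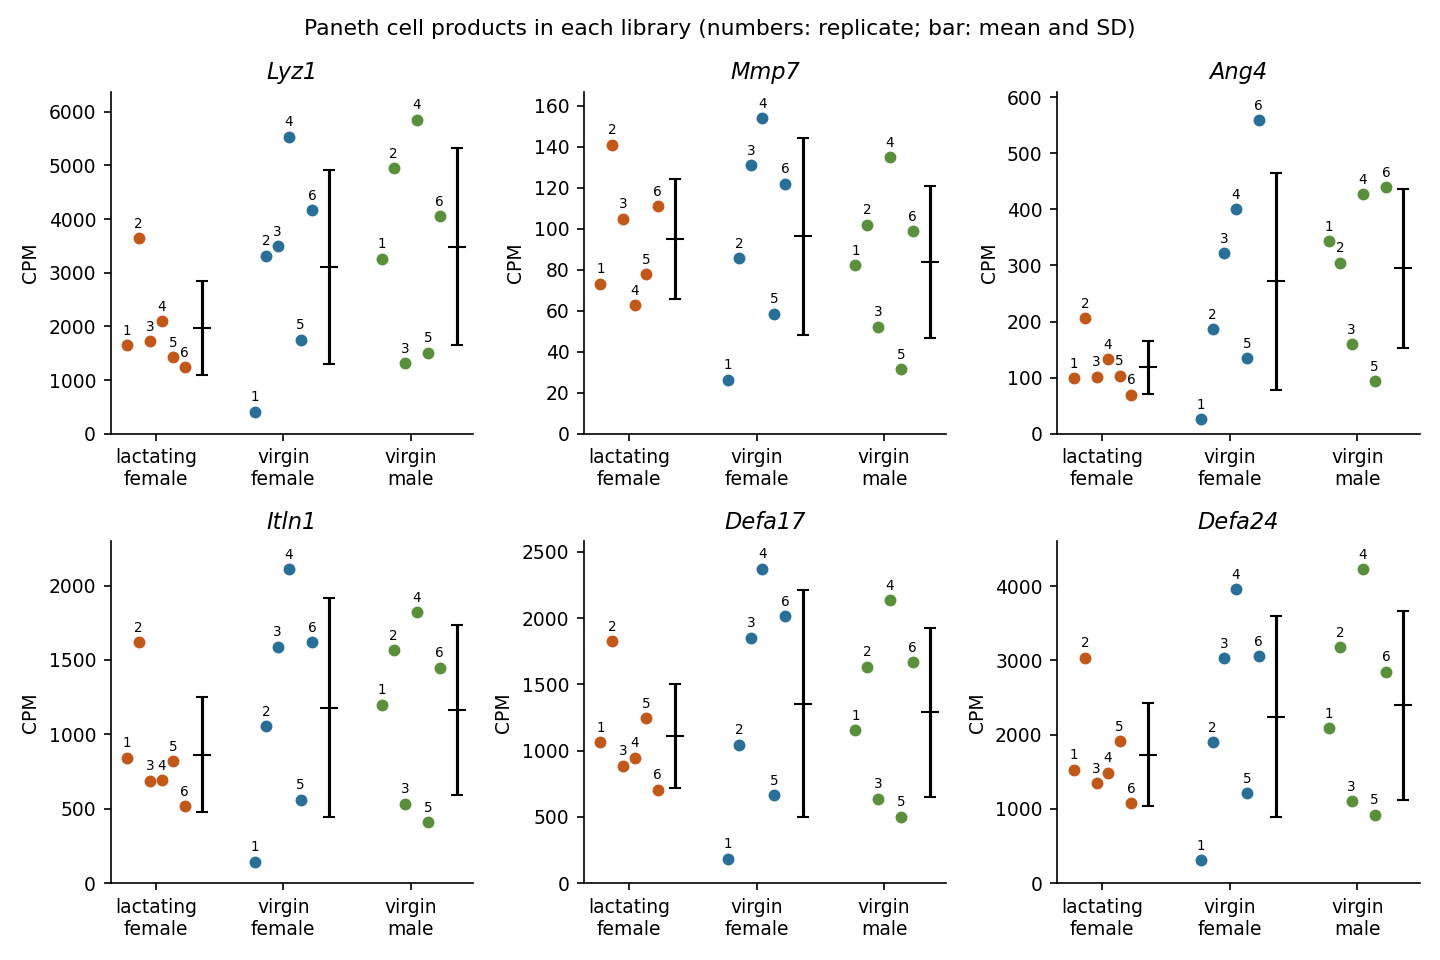
CPM of each gene (vertical axes start at 0) in the 6 libraries of each group, with replicate numbers beside the points and the mean and SD as a bar. Virgin female 1 is the lowest point in all 6 panels, and the groups overlap in each panel.

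Several libraries were high or low in all 6 genes. Virgin female 1 had the lowest value of all 18 libraries in each of the 6, and virgin male 5 ranked between 14th and 17th from the top. Virgin female 4 ranked 1st to 4th and virgin male 4 ranked 1st to 3rd. Mmp7 departed from the others in lactating female 6, which ranked 6th for Mmp7 and 14th to 17th for the other 5 genes, and in lactating female 3, which ranked 7th against 12th to 14th. The highest library exceeded the lowest by 14.2-fold for Lyz1, 14.6-fold for Itln1, 12.8-fold for Defa17, 13.8-fold for Defa24, 21.1-fold for Ang4 and 5.8-fold for Mmp7.

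This spread lay within the groups. The SD of log2 CPM around the group means was 0.99 for Lyz1, 0.75 for Mmp7, 1.09 for Ang4, 1.03 for Itln1, 0.97 for Defa17 and 0.98 for Defa24, against a median of 0.32 over the 15572 genes tested. Between 90.8% (Mmp7) and 97.8% (Ang4) of the tested genes had a smaller SD. The SD was 0.44 to 0.55 in lactating females, 0.95 to 1.58 in the virgin females and 0.76 to 0.90 in the males over the 6 genes. Virgin female 1 is part of the value for virgin females.

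As a description over 18 libraries, Pearson's r of log2 CPM between the genes ran from 0.709 (Mmp7 with Ang4) to 0.992 (Itln1 with Defa24) over the 15 pairs. For deviations from the group means it ran from 0.884 to 0.996. Without virgin female 1 the range was 0.555 to 0.986. Library and depth are shared by all of these values.

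Lactating and virgin females differ in reproductive state at the same age and sex. They may also differ in diet, since the labels name RM3 for breeding and RM1 for maintenance and the experiment. The 2 cannot be told apart here. No member of the 6 was called by edgeR's quasi-likelihood test at a Benjamini-Hochberg adjusted p under 0.05, in a comparison where 0.0578% of 15572 genes were called. All 6 fitted log2 fold changes were below 0, with a median of -0.41 against -0.003 over all genes tested. The 6 genes moved together (r of deviations 0.884 to 0.996), so they are not separate measurements. With the stem cell score described below as a covariate, 4 of the 6 stood above 0 (Mmp7 0.31, Itln1 0.06, Defa17 0.25 and Defa24 0.12), and with a replicate block Mmp7 stood at 0.11. Ang4 stood at -1.19 (SE 0.50, edgeR unadjusted p = 0.0279, adjusted p = 0.705). Lyz1 stood at -0.66 (SE 0.47, edgeR adjusted p = 0.91), Itln1 at -0.45 (SE 0.48), Defa24 at -0.37 (SE 0.46), Defa17 at -0.28 (SE 0.46) and Mmp7 at -0.02 (SE 0.36). These sizes rested on single libraries: with 1 left out, Lyz1 ranged from -0.93 (without lactating female 2) to -0.42, Itln1 from -0.73 (without lactating female 2) to -0.20, Defa24 from -0.61 (without lactating female 2) to -0.14 and Defa17 from -0.52 (without virgin female 1) to -0.05, the upper value each time without virgin female 4. Ang4 was the 1 of 6 with an unadjusted p under 0.05, a level that 6.44% of all genes reached. DESeq2 called 0 of the 6 as well (adjusted p of 0.562 or more).

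Between virgin males and virgin females the edgeR test called 0 of the 6, against 0.0835% of all genes, and 0 had an unadjusted p under 0.05, against 8.32%. The log2 fold changes, male minus female, were 0.16 for Lyz1, -0.20 for Mmp7, 0.12 for Ang4, -0.02 for Itln1, -0.07 for Defa17 and 0.09 for Defa24, with SEs of 0.36 to 0.49. A test that misses the threshold does not show that the sexes have the same levels. DESeq2 called 0 of the 6 (adjusted p of 0.934 or more).

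Lactating females differ from virgin males in both sex and reproductive state, and possibly in diet. The contributions cannot be told apart within that comparison. Here edgeR called 0 of the 6, against 0.764% of all genes, and 1 of 6 had an unadjusted p under 0.05, against 15.9%. Ang4 stood at -1.31 (SE 0.50, unadjusted p = 0.0174, edgeR adjusted p = 0.234), Lyz1 at -0.83 (SE 0.47, adjusted p = 0.382), Defa24 at -0.47, Itln1 at -0.43, Defa17 at -0.21 and Mmp7 at 0.18. With 1 library left out Lyz1 ranged from -1.10 to -0.62, Itln1 from -0.71 to -0.26, Defa24 from -0.71 to -0.23 and Defa17 from -0.41 to -0.01, in each case from without lactating female 2 to without virgin male 4. DESeq2 called 0 of the 6 (adjusted p of 0.172 or more). The CPM ranges of the groups overlapped for all 6 genes in each of the 3 comparisons. Over all tested genes the ranges did not overlap for 0.289%, 0.43% and 1.34%. The comparisons share groups, so their values are not independent of each other.

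**Figure D2:**
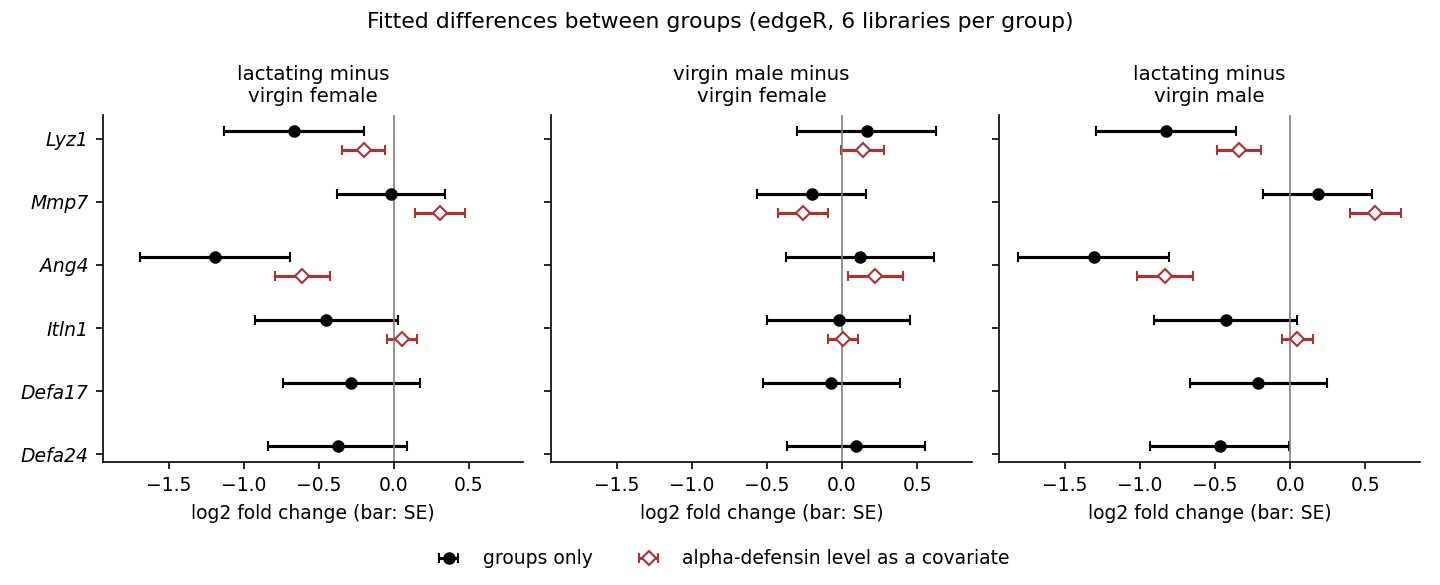
Fitted log2 fold changes (horizontal axis) of the 6 genes in the 3 comparisons, with the SE as a bar, from the fit of groups alone (filled) and, for the 4 genes that are not defensins, with the alpha-defensin level as a covariate (open). Ang4 lies left of 0 in both comparisons of lactating females, at -1.19 and -1.31 in the fit of groups alone.

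Since the 6 genes rose and fell together across libraries, their levels were also taken relative to the alpha-defensins. These were summed in each library for this purpose, chosen after the values had been seen. The alpha-defensins gave 0.313% of all counts in virgin female 1 and 5.25% in virgin female 4, with 1.14% to 3.48% in lactating females and 1.09% to 5.21% in virgin males.

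Ang4 was low relative to the defensins in lactating females. Per 1000 alpha-defensin counts, Ang4 had 4.58 to 7.90 counts in lactating females (median 6.05), 6.99 to 15.5 in the virgin females (median 8.88) and 8.67 to 14.2 in the males (median 10.8). The lactating and male ranges did not overlap. Ang4 was the 1 of 4 non-defensin members of which that held, and over 15536 genes it held for 0.116%. Against virgin females (0.0193% of genes) and between the virgin groups (0.0644%) it held for 0 of the 4. The lactating and virgin female ranges overlapped through virgin female 1, at 6.99, below lactating female 4, at 7.90. In CPM alone the share of genes without overlap between lactating females and males was 1.34%. Dividing by the defensins adds their spread to genes that do not follow them. The 4 members did follow them, so these shares are not a like background for the members.

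With the alpha-defensin level as a covariate in the edgeR fit, Ang4 was lower in lactating females than in virgin males, with a log2 fold change of -0.83 (SE 0.19, adjusted p = 0.0368, in a fit that called 0.925% of all genes). Against virgin females it stood at -0.61 (SE 0.18, edgeR adjusted p = 0.325, 0.122% of all genes called). The call against males was lost in 8 of the 18 fits that left out 1 library, with adjusted p from 0.00881 to 0.132 over the 18 and log2 fold changes from -0.93 to -0.72. The libraries whose removal ended it were lactating females 1, 5 and 6, virgin female 5 and virgin males 1, 3, 5 and 6. It was also lost without virgin female 2 and virgin male 6 together (-0.82, adjusted p = 0.0785) and with the replicate number as a block (-0.82, adjusted p = 0.0861).

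The other 3 non-defensin genes were not called in that fit, and 0 of the 4 were called between virgin males and virgin females (0.0899% of all genes called). Itln1 followed the defensins closely, with 36.3 to 53.4 counts per 1000 alpha-defensin counts over all 18 libraries and fitted log2 fold changes of 0.05, 0.01 and 0.05 (SE 0.10 each) in the order of the comparisons above. Lyz1 had 63.2 to 125 per 1000 in lactating females, 100 to 141 in the virgin females and 113 to 146 in the males. Its fitted difference from males was -0.34 (SE 0.15, edgeR adjusted p = 0.29). Mmp7 leaned the other way from Ang4, with 3.44 to 8.87 per 1000 in lactating females, 3.27 to 6.99 in the virgin females and 2.76 to 4.48 in the males, and a fitted difference from males of 0.57 (SE 0.17, edgeR adjusted p = 0.138).

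**Figure D3:**
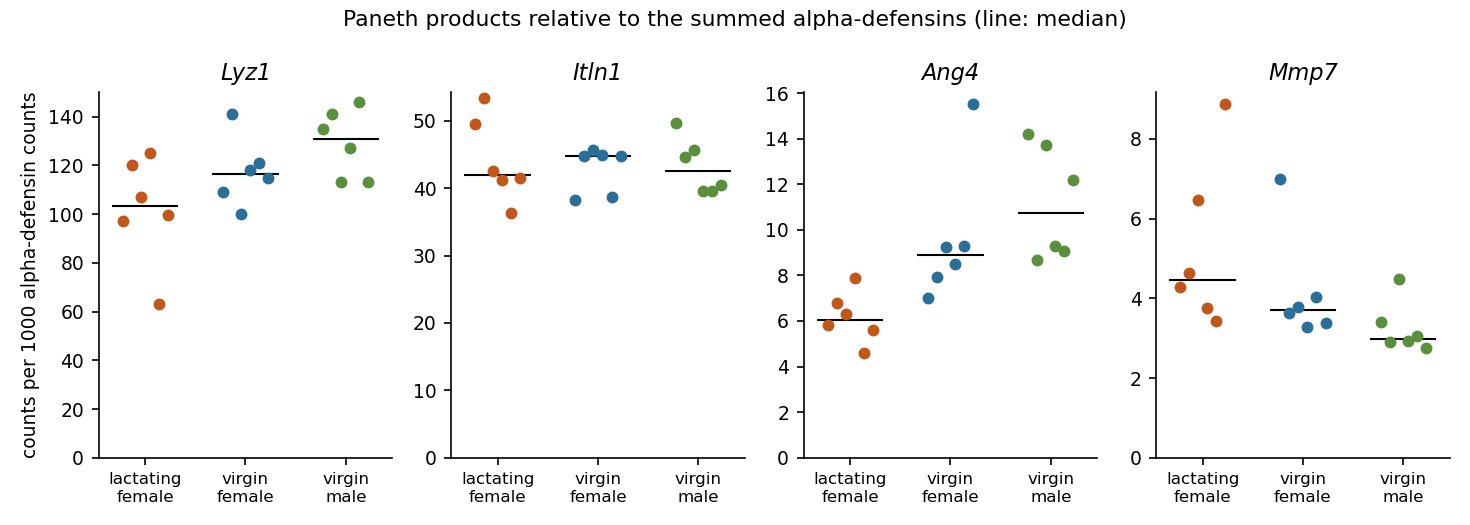
Counts of Lyz1, Itln1, Ang4 and Mmp7 per 1000 alpha-defensin counts (vertical axes start at 0) in each library, with the group median as a line. For Ang4 all 6 lactating females lie at 7.90 or below and all 6 virgin males at 8.67 or above.

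Ratios between the members were compared as well. Of the 15 pairs, 5 had ratios that did not overlap between lactating females and virgin males, and 4 of these involve Ang4. Lyz1 over Ang4 did overlap, with 13.8 to 17.8 in lactating females, 8.24 to 16.2 in virgin males and 7.44 to 17.8 in virgin females. The ratio of Mmp7 to Ang4 was 0.475 to 1.59 in lactating females, 0.225 to 0.338 in virgin males and 0.218 to 1.0 in virgin females. Relative to Mmp7, 0.225% of all tested genes did not overlap in this comparison. The ratio of Ang4 to Defa17 was 0.0833 to 0.14 in lactating females, 0.143 to 0.278 in the virgin females and 0.187 to 0.298 in the males, so that lactating females lay below both other groups. Relative to Defa17 this held for 0.0385% of the tested genes against virgin females and 0.141% against males. Ang4 with Defa17 was the 1 pair of 15 without overlap between the 2 female groups. Defa17 shares most of its sequence with Defa3, so its counts are uncertain. The ratio of Ang4 to Defa24 overlapped between the female groups, at 0.0541 to 0.0893 in lactating and 0.0867 to 0.183 in virgin females. Between virgin males and virgin females 0 of 15 pairs were without overlap. Between the female groups the share of tested genes without overlap was 0.0321% relative to Lyz1, 0.0835% to Ang4, 0.0128% to Mmp7 and to Defa24 and 0% to Itln1. Between the virgin groups it was 0.103% relative to Mmp7 and 0.0642% to each of the other 5. Between lactating females and males it was 0.173% relative to Lyz1, 1.09% to Ang4 and 0.128% to Itln1. As for the defensin ratios, shares relative to a member are not a like background, since the members followed each other.

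The remaining pair was Defa17 with Defa24, at 0.602 to 0.696 in lactating females, 0.546 to 0.658 in the virgin females and 0.504 to 0.586 in the males. Relative to Defa24, 0.135% of tested genes did not overlap between lactating females and males. Since Defa17 and Defa3 share most of their sequence, this ratio may not be that of 1 gene to another.

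The libraries that were rich in Paneth products were also rich in other crypt transcripts. A stem cell score was taken as the mean log2 CPM of 12 crypt stem cell markers such as Lgr5 and Olfm4 (Sox9, which Paneth cells also express, is 1 of the 12). Over the 18 libraries it rose with all 6 genes. For Lyz1, Pearson's r was 0.793 (permutation p = 3e-05, adjusted p = 0.00048) and Spearman's rho 0.748 (permutation p = 0.00054, adjusted p = 0.00259). For Ang4, r was 0.82 (permutation p = 4e-05, adjusted p = 0.00048) and rho 0.785 (permutation p = 0.00019, adjusted p = 0.00168). Mmp7 showed the lowest values, with r = 0.595 (permutation p = 0.00974, adjusted p = 0.0159) and rho = 0.618 (permutation p = 0.00746, adjusted p = 0.0138). Adjustment was over 24 relations of 6 genes to 4 scores.

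Without the 2 libraries farthest from the median score, virgin female 1 and lactating female 1, r with the stem cell score was 0.708 for Lyz1, 0.737 for Ang4, 0.623 for Itln1, 0.598 for Defa24, 0.567 for Defa17 and 0.428 for Mmp7. Within virgin females r was 0.922 to 0.946, within virgin males 0.66 to 0.832 and within lactating females 0.306 to 0.743. Lactating females 1 and 5 had low stem cell scores (3.54 and 3.67, against 3.35 to 5.14 over all libraries) without the low Paneth product levels of virgin female 1.

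**Figure D4:**
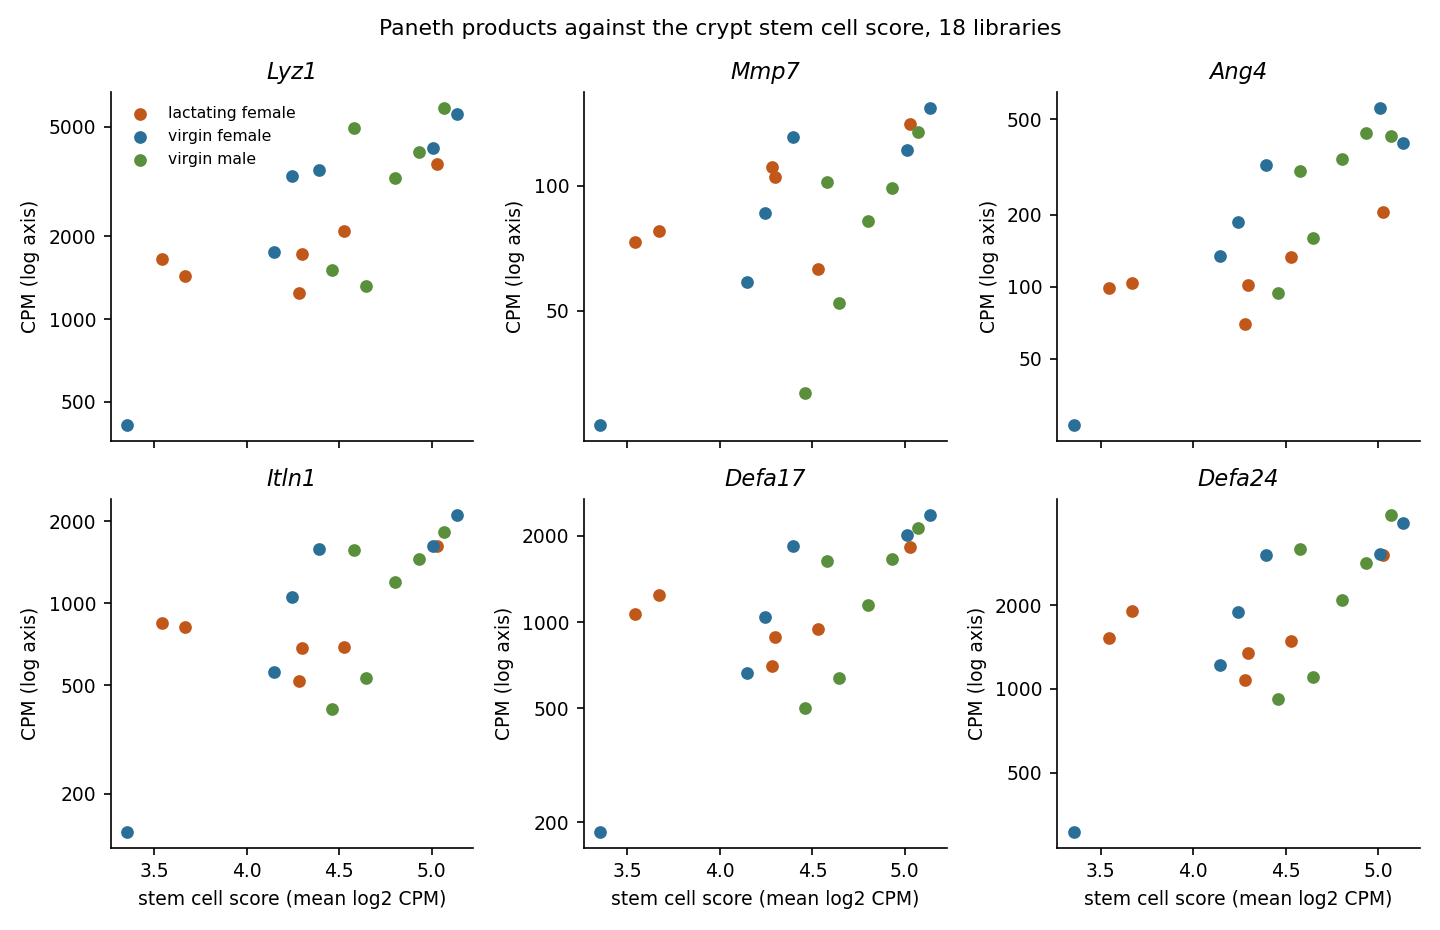
CPM of each gene on a log axis against the stem cell score (mean log2 CPM of 12 markers), 1 point per library. Virgin female 1 lies at the lower left in all panels, and the lactating females at scores of 3.54 and 3.67 lie above it.

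Markers of other cell types moved with the 6 genes as well. For 20 cell cycle genes r was 0.555 to 0.653 over the 6 members and for 12 goblet cell genes 0.506 to 0.671. For 15 enterocyte genes it was -0.67 to -0.492. All 24 relations had an adjusted permutation p of 0.0383 or less for r. The goblet list holds Spink4, which also stands in a Paneth list. Within lactating females the r with the goblet score ranged from -0.22 to 0.443, and with the enterocyte score from -0.784 to -0.183. The summed enterocyte markers ran from 31150 to 94387 CPM in lactating females, from 29914 to 87435 in the virgin females and from 21747 to 41807 in the males. The summed stem cell markers ran from 307 to 928, from 285 to 1015 and from 653 to 966 CPM. The part of cell makeup in the differences between groups was not tested. A fit with the stem cell score as a covariate cannot decide it. The score was taken from the same libraries and holds Sox9, which Paneth cells also express. In that fit Ang4 stood at -0.54 against virgin females (edgeR adjusted p = 0.608) and at -0.39 against males (adjusted p = 0.938), compared with -1.19 and -1.31 in the fit of groups alone. Lyz1 against males stood at -0.09, compared with -0.83. Itln1, Defa17 and Defa24 turned from below to above 0 in both comparisons.

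The alpha-defensin family gives the setting of Defa17 and Defa24. Of 47 annotated members, 17 of them pseudogenes, 36 passed the filter on low counts and 9 had 0 counts in all libraries. Defa20 held 10.3% of the family's counts on average, Defa2 9.96%, Defa32 8.85%, Defa33 8.69% and Defa24 8.68%. Defa17 came next with 5.19%, close to Defa22 (5.08%), Defa21 (4.98%) and Defa3 (4.98%). These shares were steady while the family total varied: Defa24 held at least 7.95% and Defa17 4.43% to 6.24% over the 18 libraries. The r of log2 CPM with Defa24 was at least 0.9 for 30 of the 35 other genes that passed.

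No gene of the family was called by edgeR in any comparison, and 0, 0 and 1 of the 36 had an unadjusted p under 0.05. Over all genes tested, 0.0578%, 0.0835% and 0.764% were called and 6.44%, 8.32% and 15.9% had such an unadjusted p. The median log2 fold change was -0.49 for lactating against virgin female (33 of 36 below 0), 0.05 for male against female and -0.49 for lactating against male. The genes share sequence and so are not separate measurements.

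How the deposited counts treat the copies can be read from the files in part. Every 100-base stretch of Defa2, Defa33, Defa31, Defa37 and Gm7849 also occurs in another gene. These rows nevertheless held large counts, such as a mean of 2411 CPM for Defa2 and 2086 CPM for Defa33. Defa36 and Defa37 had 19166 and 19182 counts in lactating female 1, and the counts of this pair differed by less than 1 counting error in 14 of 18 libraries, with a median difference of 0.35% and a highest of 13.2%, in virgin female 4. Defa23 with Defa31 lay within 1 counting error in 8 of 18 libraries, and Gm7861 with Gm7849 in 9. Defa3 and Defa17, with the same coding sequence, differed by 6.44% in the median library and by 10.8% at most. Their median difference was 10.1 counting errors, and 2 of 18 libraries lay within 1, so these 2 rows were not equal. The rule for reads that match several places is not given in the sources used here, and counts of copies that share most of their length, Defa17 among them, are uncertain.

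**Figure D5:**
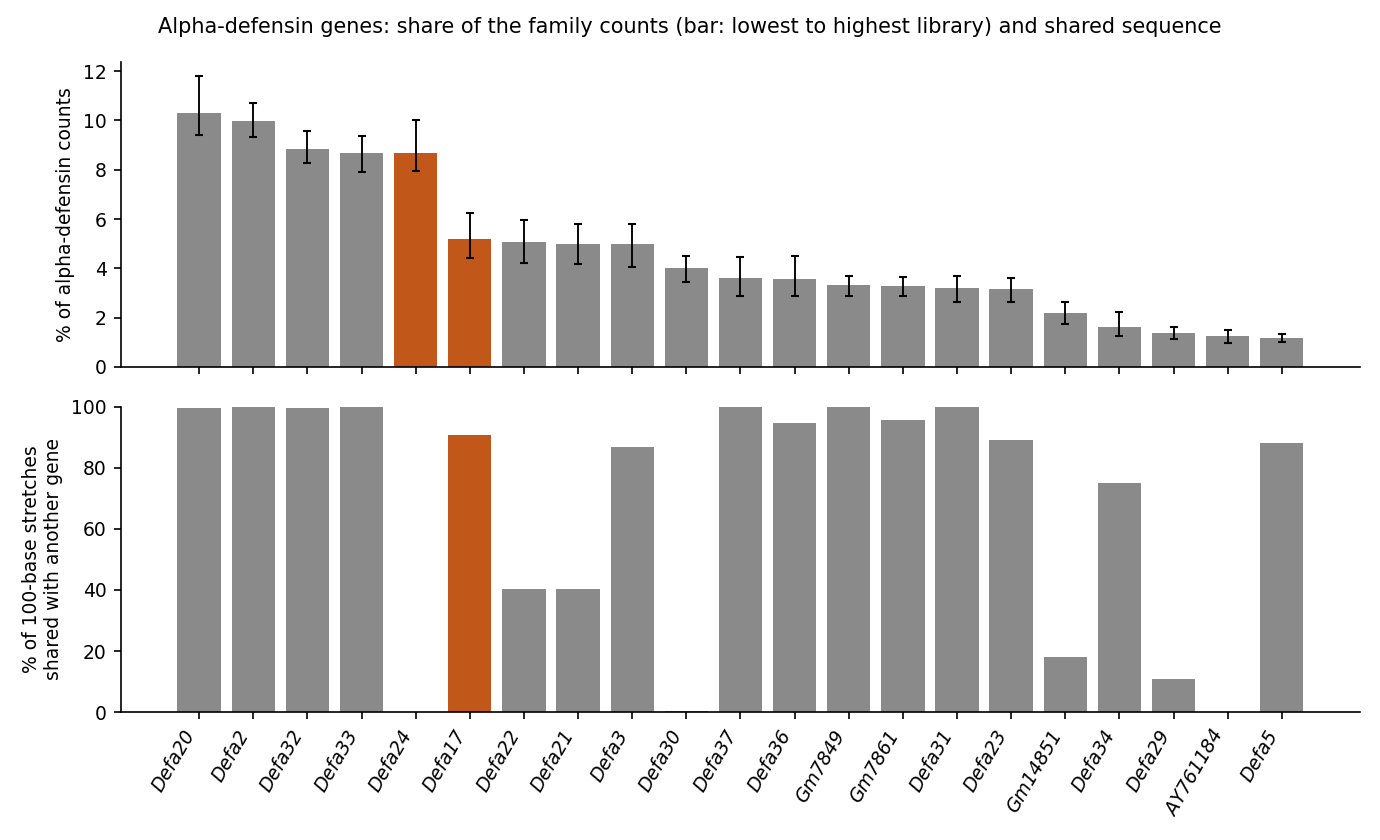
The 21 alpha-defensin genes with at least 1% of the family's counts: mean share of the counts with the lowest and highest library as a bar (top), and the share of 100-base stretches of the transcript that occur in another gene (bottom). Of the orange bars, Defa24 shares 0% and Defa17 90.6%.

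Other granule and secreted products divided into genes that followed the 6 and genes that did not. Of 20 listed genes 17 passed the filter, and edgeR called 0 in each comparison (1, 1 and 4 at an unadjusted p under 0.05, a level that 6.44%, 8.32% and 15.9% of all genes reached). With the mean of the standardised 6 genes, 7 of the 17 had r of at least 0.8 and 6 had r under 0.3. The lectins Reg3b and Reg3g, which enterocytes also make, were of the second kind (r of -0.375 and -0.352). Reg3b, at 4624 CPM per kilobase the most abundant of the list, ran from 2624 to 21819 CPM in lactating females, from 1129 to 7564 in virgin females and from 1822 to 3843 CPM in males (mean 2725 ± 768, SD, n = 6). Its log2 fold change was 1.45 against virgin females (SE 0.54, edgeR adjusted p = 0.607) and 1.82 against males (SE 0.54, adjusted p = 0.142). Mptx2, a pentraxin, and Spink4, a protease inhibitor, had r of 0.777 and 0.788.

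Lyz2, the lysozyme of macrophages, is also the closest copy of Lyz1, with 425 of 447 aligned coding bases identical (95.1%). In these libraries Lyz1 exceeded it by 99.1-fold to 158-fold, and Lyz2 followed Lyz1 with an r of 0.979, the highest of all genes compared with Lyz1. Of the macrophage genes, Cd68 stood at 0.642 to 2.25 CPM, Csf1r at 0.104 to 1.26 CPM and Adgre1 at no more than 0.0415 CPM, against 3.97 to 43.7 CPM for Lyz2. Whether some Lyz2 counts are Lyz1 reads was not tested.

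Among factors, niche signals and granule zinc genes, 23 of 24 passed the filter, and 1 was called by edgeR in 1 comparison, that of lactating females with males, in which 0.764% of all genes were called. At an unadjusted p under 0.05 the counts were 3, 4 and 6 of 23, against 6.44%, 8.32% and 15.9% of all genes. Dll4, a Notch ligand, stood at 17.9 ± 4.31 CPM in lactating females, 14.7 ± 2.71 in the virgin females and 10.3 ± 1.32 in the males (SD, n = 6 each). It was higher in lactating females than in males by 0.79 (log2, SE 0.16, edgeR adjusted p = 0.0201), and the ranges of these 2 groups (13.1 to 22.7 and 8.34 to 11.7 CPM) did not overlap, as for 1.34% of all genes. Dll1, another Notch ligand, was not called and leaned the other way, with 21.2 to 32.1 CPM in lactating females, 31.0 to 40.2 in the virgin females and 28.7 to 36.2 in the males. Its log2 fold change between the female groups was -0.41 (SE 0.10, unadjusted p = 0.000725, edgeR adjusted p = 0.226). The r of Dll4 with the 6 Paneth products was -0.445, so it did not follow them. The niche signal Wnt3 (r = 0.943), the secretory regulator Bhlha15 (0.945), Cd24a (0.903), Spdef (0.882), Egf (0.845), Atoh1 (0.84), Kit (0.811) and Sox9 (0.803) did. Xbp1, a regulator of the unfolded protein response and the most abundant of the list per kilobase of exon (43.2 CPM), had r = -0.34, and the zinc transporter Slc30a2 had r = -0.414. In all, 9 of the 23 had r of at least 0.8 and 9 had r under 0.3.

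The genes whose pattern was most like the mean of the 6 were sought among 11261 genes with a mean of at least 1 CPM, leaving out the members, the alpha-defensins and predicted genes. By Pearson's r of log2 CPM over the 18 libraries, they were Clps (0.963), Habp2 (0.962), Tmed6 (0.961), Fzd9 (0.95), Lyz2 (0.947), Bhlha15 (0.945), Wnt3 (0.943), Cxxc5 (0.94), Pycr1 (0.931) and C4bp (0.923). Clps encodes colipase, a cofactor of pancreatic lipase, and stood at 4.89 to 66.3 CPM, with its lowest value in virgin female 1. Habp2, Lyz2, Clps, Bhlha15 and Wnt3 stand in the Paneth lists described above, and the other 5 do not. The most opposite patterns were those of Arhgef19 (-0.864), Coro1c (-0.857), H2-Q10 (-0.85), Tmem253 (-0.85) and Spns3 (-0.844).

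Mmp7 had other nearest genes than the rest. They were the secreted phospholipases Pla2g2a (0.971) and Pla2g2f (0.935), and Nucb2 (0.933), whereas Clps was among the nearest 3 of each of the other 5 members. Pla2g2a, a bactericidal phospholipase of Paneth granules, stood at 15.3 ± 4.2 CPM in lactating females, 14.4 ± 7.24 in the virgin females and 14.1 ± 6.12 in the males (SD, n = 6 each), with a log2 fold change of 0.09 between the female groups (SE 0.37). The difference between Mmp7 and the other members in this respect was not tested.

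The bases before the transcription starts are shown because the members moved together across libraries while their promoters need not be alike. RefSeq's promoter table for GRCm38.p6 holds entries for Lyz1, Mmp7, Ang4 and Itln1, and none for Defa17 or Defa24. Windows of 250 bases before the start were searched on both strands for TATAAA (the TATA box), CTTTGAT (a sequence bound by TCF factors of the Wnt pathway) and CAGCTG (an E-box). No motif contains another. The last 150 bases are printed for 3 members and for 2 other alpha-defensins, with matches in capitals (ATCAAAG is CTTTGAT on the other strand). They lie at chr10:117292869-117293018 for Lyz1 (minus strand), chr9:7691940-7692089 for Mmp7 (plus), chr14:51773591-51773740 for Ang4 (minus), chr8:21509108-21509257 for Defa20 (plus) and chr8:21025395-21025544 for Defa21 (plus).
Lyz1: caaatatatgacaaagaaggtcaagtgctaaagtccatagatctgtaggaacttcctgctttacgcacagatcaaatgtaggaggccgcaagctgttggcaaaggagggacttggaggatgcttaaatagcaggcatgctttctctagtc
Mmp7: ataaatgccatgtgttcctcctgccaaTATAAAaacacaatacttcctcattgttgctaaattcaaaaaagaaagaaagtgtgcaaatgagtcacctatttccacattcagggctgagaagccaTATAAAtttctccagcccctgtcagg
Ang4: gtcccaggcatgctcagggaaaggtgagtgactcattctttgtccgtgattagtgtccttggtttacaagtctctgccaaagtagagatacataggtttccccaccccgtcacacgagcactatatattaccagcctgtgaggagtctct
Defa20: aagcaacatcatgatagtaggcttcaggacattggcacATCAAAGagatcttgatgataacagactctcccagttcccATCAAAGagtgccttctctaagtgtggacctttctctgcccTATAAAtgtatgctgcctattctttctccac
Defa21: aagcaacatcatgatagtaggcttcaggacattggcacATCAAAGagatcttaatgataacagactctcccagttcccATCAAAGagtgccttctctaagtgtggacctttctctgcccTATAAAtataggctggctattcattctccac

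The alpha-defensins held both motifs. Of 14 alpha-defensin promoters in the table, 12 held CTTTGAT and 12 held TATAAA, against 3.21% and 12.37% of all 32851 promoters. In Defa20 and Defa21 CTTTGAT began at -112 and -72 and TATAAA at -31. The windows of these copies are nearly the same, so the 14 promoters are not separate observations. CAGCTG was in 1 of 14, against 13.0% of all promoters. Mmp7 held TATAAA at -123 and -26 and neither of the other motifs, and in Lyz1, Ang4 and Itln1 none of the 3 was found in this window. A match describes letters, not a bound site.

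Lyz1 and Lyz2 were also alike before their starts. The last 50 bases were identical (50 of 50), and identity was 92.0% over 100 bases, 88.7% over 150 and 79.4% over 250. The Lyz2 window lies at chr10:117282273-117282422 on the minus strand, beside Lyz1 on the same chromosome.
Lyz2: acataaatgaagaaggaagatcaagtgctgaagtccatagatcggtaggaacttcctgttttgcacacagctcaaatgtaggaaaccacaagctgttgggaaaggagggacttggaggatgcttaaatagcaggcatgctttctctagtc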

How the data were processed

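The authors deposited 1 table of raw counts of reads per Ensembl gene for each of the 18 libraries. HISAT2 2.0.4, featureCounts (Subread 2.0.0), FastQC 0.11.5 and DESeq2 1.24.0 are named, with build GRCm38, in the submitters' processing notes. The annotation release, strand setting and handling of reads that match several places are not given in the sources used here. Symbols, exons and coordinates came from GENCODE M21 (47310 of 47729 identifiers found).

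Groups came from the labels. Genes passing filterByExpr (15572) were fitted with edgeR 4.0.16 (TMM, quasi-likelihood, a mean per group over all 18 libraries). P-values were adjusted by Benjamini-Hochberg over all genes tested, with calls made under 0.05. Each SE is the log2 fold change over the root of its F statistic. Log2 CPM used a prior count of 2. Scores were related to genes with 100000 permutations (scipy 1.17.1), two-sided.

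Members and gene lists were chosen with earlier results of these data known. Genes named beyond the 6 were up to 6 per list with the highest CPM per kilobase, called genes and the genes most like the members. Other genes of the lists are named for their r, their shared sequence or, for Dll1, as a counterpart of Dll4, and were chosen after their values were seen.

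Alternatives were RLE factors, DESeq2 1.42.0, no filter, the 2 groups alone, a replicate block, the stem cell score as a covariate, the alpha-defensins summed, leaving out libraries and, chosen after seeing the data, the alpha-defensin level as a covariate. Counts were also simulated for all 18 libraries, with changes set in lactating females. For lactating against virgin female, the fit (15401 genes) recovered 30.6% of changes of 1.5-fold, 66% of 2-fold and 92% of 3-fold. Recovery was not worked out for genes as variable as the Paneth products. Their within-group SD of log2 CPM was 0.745 (Mmp7) to 1.088 (Ang4), against a median of 0.323 over all genes tested. The shares therefore do not tell how often such changes in these products would be called. Counts have no molecular identifiers, so the floor covers counting error only.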

Additional observations from a re-analysis of the deposited data

Results flagged for a closer look

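Groups of 6 libraries were checked for a single value far from the rest, with 18 checks in all (6 genes in 3 groups), of which chance flags about 1 in 20. Lactating female 2 stood out in 2 genes of the same group. Its Lyz1 level was 3647 CPM, against 1245 to 2096 CPM in the other 5 lactating females. Its Itln1 level was 1619 CPM, against 519 to 844 CPM. The same library was the highest of the lactating group in the other 4 members too, and its stem cell score (5.03) and cell cycle score (5.42) were the highest of that group. The part of these scores in the 2 values was not tested.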

How the results depend on the processing

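Under 27 alternatives the 18 fold changes of the 6 genes gave 480 values, of which 434 kept their direction and stayed uncalled, 45 turned their direction and 1 became called (Ang4, lactating against male, -0.83 with the alpha-defensin covariate). In the order lactating against virgin female, male against virgin female and lactating against male, the genes called were 9, 13 and 119, with DESeq2 57, 44 and 415. No filter gave 20 for males against females. For lactating against virgin female the count was 1 with the 2 groups alone, 1 with the replicate block, 32 with the stem cell score, 1 without virgin female 2 and virgin male 6 and 19 with the alpha-defensin level. Without those 2 libraries lactating against male gave 61. Leaving out 1 library gave 2 to 16, 10 to 18 and 62 to 311. In the first comparison the count was 2 without lactating female 1 or virgin female 1, 2 or 3 and 16 without lactating female 3, and it moved by over 1.5 times without each library except lactating females 2, 4 and 5 and virgin male 5. In the last it was 311 without lactating female 2 and 62 to 76 without lactating females 1 and 6 and virgin males 1, 2, 3, 4 and 6.

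The following values turned their direction or are ranges that cross 0. For lactating against virgin female, Mmp7 stood at 0.308 with either covariate and at 0.108 with the replicate block, and left-out libraries gave -0.214 to 0.164. With the stem cell score Itln1 stood at 0.057, Defa17 at 0.245 and Defa24 at 0.118, and with the alpha-defensin level Itln1 at 0.053. For male against female the stem cell score gave -0.122 for Lyz1, -0.153 for Ang4 and -0.152 for Defa24, the block 0.012 and the alpha-defensin level 0.007 for Itln1, and the summed family 0.03 for Defa17. Leaving out virgin female 2 and virgin male 6 gave -0.119 for Ang4 and -0.006 for Defa24. Leaving out 1 library gave -0.067 to 0.408 for Lyz1, -0.124 to 0.46 for Ang4, -0.255 to 0.226 for Itln1, -0.304 to 0.161 for Defa17 and -0.147 to 0.333 for Defa24. For lactating against male the stem cell score gave 0.316 for Itln1, 0.541 for Defa17 and 0.27 for Defa24, and the alpha-defensin level 0.046 for Itln1. The cause was not tested.

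At equal alpha-defensin level, Ang4 in lactating females against males lost its call with the replicate block (-0.816, adjusted p = 0.0861) and without virgin female 2 and virgin male 6 (-0.82), and ranged from -0.925 to -0.724 with 1 library left out. Against virgin females it ranged from -0.717 to -0.445 and for male against female from 0.122 to 0.407, with no call. DESeq2 gave -0.829 (adjusted p = 0.00201) against males. Whether the replicate numbers pair the libraries is not known. Correlations of same-numbered deviations ran from -0.219 to 0.477, which cannot settle it. Virgin males 4 and 5 matched virgin females 4 and 5 best (0.477 and 0.364). Lactating females 3 and 5 matched virgin males 3 and 5 best (0.321 and 0.199), and the other libraries did not match their own number best. All 6 genes stood far above the floor of 3 counts, and the effect of depth on the calls was not tested.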
